A study of Mus musculus with 8 samples.

Results

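The granzymes and the secretory leukocyte protease inhibitor Slpi were followed in RNA of fibro-adipogenic progenitors (FAPs), the mesenchymal progenitors of skeletal muscle. The set held 8 genes of the 55276 gene symbols analysed, namely Slpi and the 7 granzyme genes Gzma, Gzmb, Gzmc, Gzmd, Gzme, Gzmf and Gzmg. They were picked by symbol once the genotype difference at 7 days post injury (dpi) was known. In the limma fit used here, Slpi and Gzmc were 2 of the 3 genes called higher in Osr1cKO FAPs on that day. Values of the set at 7 dpi are therefore given as a description without a test. The 3 dpi libraries played no part in the choice and are tested. The paper's own DESeq2 analysis called many more genes higher at 7 dpi than this fit.

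The cells were GFP+ FAPs sorted from the tibialis anterior of mice of 4 to 6 months after a freeze-pierce injury, with lineage antibodies against CD31, CD45 and TER119 used to leave out endothelial, blood and red cells. Controls were Osr1 flox/+ CAGG Cre+ and mutants (Osr1cKO) Osr1 flox/flox CAGG Cre+, so both genotypes carried the ubiquitous tamoxifen-inducible Cre, received tamoxifen and expressed eGFP from a recombined Osr1 allele. Controls were thus heterozygous, and recombination was not limited to FAPs. There were 2 libraries per genotype at 3 dpi and at 7 dpi, and a library stood for 1 mouse on the earlier day but for a pool of 4 mice on the later one.

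Granzymes are serine proteases stored in the granules of cytotoxic T cells and natural killer cells, where perforin lets them into target cells and granzyme B starts apoptosis by cutting caspases. Mice have a cluster of granzyme genes, several of which arose by recent duplication and have no human counterpart of the same name. Slpi belongs to the whey acidic protein (WAP) family, is secreted by epithelial and myeloid cells, and blocks neutrophil elastase and cathepsin G. Chymases and mast cell proteases of the same fold lie beside the granzymes in the genome.

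Depth lay between 36516513 and 51096350 fragments per library, recovered from the deposited TPM (a share of all transcripts, scaled to exon length). FAP markers such as Pdgfra were at 197 to 366 TPM, and the 10 FAP markers together reached at least 27400 TPM in every library. Col1a1 and Col3a1 made up most of this sum (12400 and 6401 TPM in control library 1 at 3 dpi). At 3 dpi 6 of the 10 had a positive and 4 a negative log2 difference. Ly6a, the Sca-1 gene, was lower (5407 and 4232 TPM in controls, 3058 and 2020 TPM in mutants, limma unadjusted p = 0.0396). That call was lost without a filter. At 7 dpi 9 had a negative and 1 a positive difference, with a median of -0.15 beside 0.01 over all genes. For the targeted gene Osr1, controls gave 105 and 91.0 TPM against 70.7 and 71.9 TPM of Osr1cKO at 3 dpi, and 67.6 and 71.6 against 64.4 and 60.8 TPM at 7 dpi. Both mutant libraries were below both controls on each day, with Osr1 RNA still counted in all of them. Gene values do not show which part of the transcript recombination had removed. From the reads of its RNA-seq data, the paper reports efficient deletion of the floxed Osr1 exon. Of the leukocyte markers, the gene of CD45, Ptprc, stayed at or under 0.216 TPM. Others were higher, such as the macrophage gene Lyz2 at 2.55 to 36.1 TPM. The 12 macrophage markers together summed to 12.4 to 81.1 TPM over the libraries.

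Of the 7 granzymes, 6 lay in one stretch of chromosome 14 on the minus strand (mm10, the same assembly as GRCm38). These were Gzme (chr14:56117626-56120625), Gzmd (chr14:56129556-56132608), Gzmg (chr14:56156582-56159579), Gzmf (chr14:56205263-56211417), Gzmc (chr14:56231441-56234656) and Gzmb (chr14:56258838-56262260), each with 5 exons. Gzmn, a further granzyme that is no member, lies between Gzmg and Gzmf. Gzma sits apart at chr13:113093825-113100981 and Slpi at chr2:164354070-164389095, both on the minus strand. The antisense gene Gm4022 overlaps an exon of Gzmf on the opposite strand, and these can be told apart only by counting that uses strand. The exons of Mir7678 overlap those of Slpi on the same strand, so strand does not separate that pair.

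Because several of these genes are close copies, the sequences that separate or join them come first. Over the coding sequence Gzmd and Gzme were 94.8% identical, Gzme and Gzmg 90%, and Gzmd and Gzmg 89.2%. Gzmc was 75.6% to 76.4% identical to Gzmd, Gzme, Gzmf and Gzmg, and 77.9% to Gzmb. Gzma was no more than 64.3% identical to any other member. The longest run of identical coding bases was 96 bases, in exon 4 of Gzmd (coding bases 410 to 505, chr14:56130310-56130405) and of Gzme (coding bases 398 to 493, chr14:56118361-56118456). It is shown because a read lying within it belongs equally to both genes. Capitals mark the 6 bases by which the matching stretch of Gzmg (chr14:56157317-56157412) departs from it, and all are written in the direction of transcription, from the GENCODE transcripts.
Gzmd: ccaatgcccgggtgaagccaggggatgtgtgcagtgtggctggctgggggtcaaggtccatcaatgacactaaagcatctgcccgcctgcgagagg
Gzme: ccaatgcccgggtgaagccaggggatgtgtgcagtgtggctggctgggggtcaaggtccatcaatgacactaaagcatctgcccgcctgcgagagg
Gzmg: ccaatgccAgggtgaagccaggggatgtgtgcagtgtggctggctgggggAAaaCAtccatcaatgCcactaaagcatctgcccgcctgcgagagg

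Over whole transcripts the shared part was small. Of all 75-base windows, the read length in the labels, 5.73% of those of Gzmd, 4.75% of Gzme and 6.83% of Gzmg occurred exactly in another annotated transcript, all of them granzymes. For Gzmb, Gzmc, Gzmf, Gzma and Slpi the share was 0. With windows of 100 bases it fell to 0.231% for Gzmd, 0.247% for Gzmg and 0 for the other members. Values of Gzmc, Gzmb and Slpi therefore rest on reads that match no other annotated transcript exactly, whereas Gzmd and Gzme could exchange a small share of single reads. How the counting program treated mismatches and shared reads is not given in the sources used here.

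In the 300 bases around the annotated RefSeq start, Gzmc, Gzmd, Gzme, Gzmf and Gzmg were 86.1% to 94.0% identical, whereas Gzmb was at most 63.2% and Gzmn at most 64.5% identical to them in the same window. A block of 101 bases just upstream of the start aligned without a gap in all 5 copies. It is printed 5′ to 3′ on the minus strand of chromosome 14 (RefSeq, GRCm38.p6), with capitals marking a full cAMP response element (CRE), TGACGTCA. The blocks lie at chr14:56234668-56234768 for Gzmc, chr14:56132608-56132708 for Gzmd, chr14:56120641-56120741 for Gzme, chr14:56211443-56211543 for Gzmf and chr14:56159610-56159710 for Gzmg.
Gzmc: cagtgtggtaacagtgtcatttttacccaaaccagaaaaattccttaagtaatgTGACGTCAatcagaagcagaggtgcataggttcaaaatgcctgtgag
Gzmd: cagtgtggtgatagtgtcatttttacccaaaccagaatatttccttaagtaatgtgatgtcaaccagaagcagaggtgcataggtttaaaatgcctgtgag
Gzme: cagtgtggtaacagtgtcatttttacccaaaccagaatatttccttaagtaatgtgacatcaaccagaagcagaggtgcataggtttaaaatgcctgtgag
Gzmf: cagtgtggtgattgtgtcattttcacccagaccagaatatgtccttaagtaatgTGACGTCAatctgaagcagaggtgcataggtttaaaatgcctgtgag
Gzmg: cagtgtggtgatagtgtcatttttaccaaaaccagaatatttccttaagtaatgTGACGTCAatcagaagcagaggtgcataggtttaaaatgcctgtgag

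The blocks were 90.1% to 97.0% identical. Counted from 1 at the first base of the Gzmc block, C58T removed the CRE letters in Gzmd and G59A in Gzme, and C87T gave the letters TTTAAAA in Gzmd, Gzme, Gzmf and Gzmg. On both strands, TGACGTCA was found in 1.62% and TTTAAAA in 8% of 27025 RefSeq promoters of the same length. The AP-1 letters TGANTCA (6.87% of promoters) matched the promoter of Gzmb from -58 to -52, and an E-box, CACGTG (6.05% of promoters), that of Slpi from -146 to -141, both counted from the start. Among the copies with measurable RNA, Gzmc held the full CRE while Gzmd and Gzme did not, and Gzmf and Gzmg held it with RNA near 0. C/EBP, STAT and NF-kB letters were searched as well, and C/EBP letters, TTNNGNAA, matched Slpi, Gzmc, Gzmd, Gzme, Gzmf and Gzmg against 36.9% of all promoters. STAT letters, TTCNNNGAA (7.18% of promoters), and the NF-kB motif (17.3% of promoters) matched no member.

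**Figure D1:**
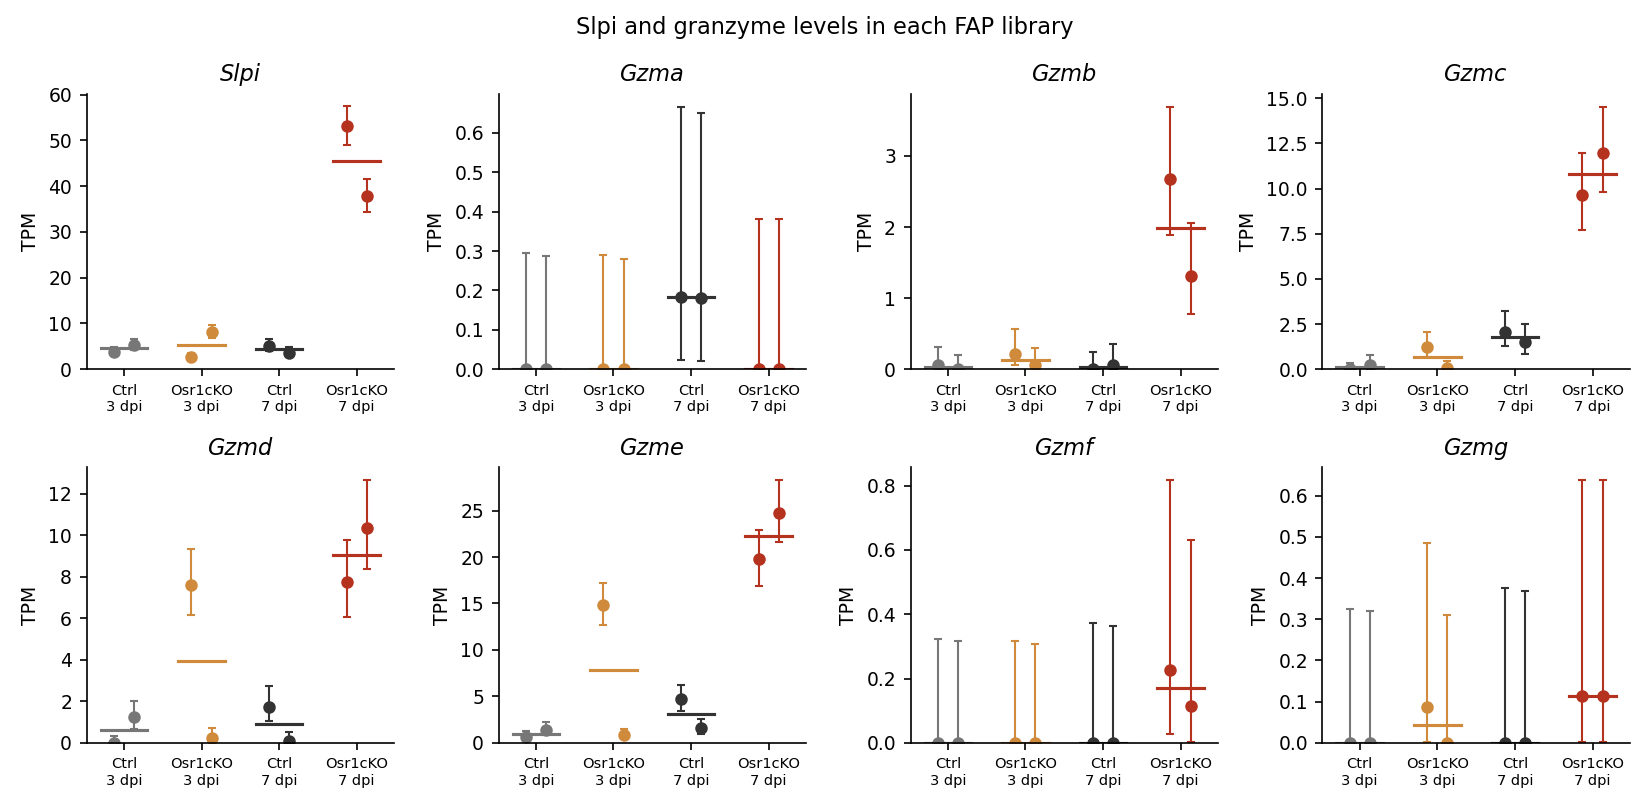
TPM of each member in the 8 libraries. Points are libraries, vertical lines their exact 95% Poisson intervals from recovered fragments (counting error only) and horizontal bars group means. Slpi, Gzmb, Gzmc, Gzmd and Gzme were above both control libraries in both Osr1cKO libraries at 7 dpi. At 3 dpi Gzmd and Gzme were high in 1 Osr1cKO library, and Gzma, Gzmf and Gzmg did not pass 0.227 TPM.

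Slpi, the inhibitor, was the most abundant member in the Osr1cKO FAPs at 7 dpi. At 3 dpi the control libraries read 3.81 and 5.26 TPM, and those of Osr1cKO 2.61 and 8.09 TPM. The mutant libraries lay on either side of both controls. At 7 dpi the control libraries read 5.11 and 3.61 TPM, and the Osr1cKO libraries 53.0 and 37.8 TPM, with no overlap. The group means were 4.36 ± 1.06 and 45.4 ± 10.8 TPM (SD, n = 2 each), a ratio of 10.4. In recovered fragments this was 112 in the controls against 1031 in the mutants, a ratio per depth of 10.5 with a counting interval of 8.59 to 12.8. The fitted difference at 7 dpi was 2.99 ± 0.23 (SE) on the log2(TPM + 1) scale, the value by which Slpi was selected. By mean TPM, Slpi moved from above 62.5% of the detected genes in controls to above 89.3% in mutants.

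In control FAPs Slpi hardly differed between the days (4.54 ± 1.03 TPM at 3 dpi), so the high level was seen in 1 of the 4 groups. In the Osr1cKO groups its mean was 8.49 times higher at 7 than at 3 dpi. Day, the pooling of mice and possibly the sequencing instrument change together in this comparison and cannot be told apart, which holds for every difference between days given here.

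Gzme, a granzyme of the duplicated group, was the most abundant granzyme of the set. Control libraries read 0.614 and 1.37 TPM at 3 dpi and 4.66 and 1.58 TPM at 7 dpi. Osr1cKO libraries read 14.8 and 0.834 TPM at 3 dpi and 19.8 and 24.8 TPM at 7 dpi. At 7 dpi the mutants were above both controls, and at 3 dpi the first mutant library was near the 7 dpi level while the second lay among the controls. The means at 7 dpi were 3.12 ± 2.18 and 22.3 ± 3.55 TPM (SD, n = 2 each), a ratio of 7.13, and the fitted difference was 2.49 ± 0.38 (SE, log2 scale).

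Gzmd, its nearest copy, was highest in the same mutant libraries, with a different order among the lower libraries. It was at 0 and 1.22 TPM in controls and 7.62 and 0.238 TPM in mutants at 3 dpi, then at 1.73 and 0.0940 TPM in controls and 7.77 and 10.4 TPM in mutants at 7 dpi. Control library 2 at 7 dpi held a single Gzmd fragment beside 16 of Gzme. The ratio of the means at 7 dpi was 9.93, from 19 against 168 fragments, and the fitted log2 difference 2.44 ± 0.44 (SE). For Gzme the same comparison counted 62 against 392 fragments, and the windows these genes share exactly with other copies made up 4.75% and 5.73% of each, as given above.

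Gzmc, which shares no 75-base window with another transcript, was called higher at 7 dpi together with Slpi. It stood at 0 and 0.264 TPM in controls and 1.24 and 0.0854 TPM in mutants at 3 dpi. At 7 dpi it stood at 2.08 and 1.52 TPM in controls and at 9.65 and 12.0 TPM in mutants. Those groups did not overlap and their means, 1.80 ± 0.39 and 10.8 ± 1.65 TPM (SD, n = 2 each), differed by a ratio of 6.02. In fragments this was 35 against 186, with a counting interval of the ratio of 4.18 to 8.92, and the fitted difference on which it was selected was 1.98 ± 0.18 (SE, log2 scale). Within the controls Gzmc had 3 fragments at 3 dpi and 35 at 7 dpi, and both later libraries were above both earlier ones, which was not so for Slpi and Gzmb.

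Gzmb, the caspase-cutting granzyme of cytotoxic cells, was near the limit of detection in 3 groups. Controls held 1 and 0 fragments at 3 dpi and 0 and 1 at 7 dpi, or at most 0.0631 TPM. Mutants held 4 and 1 fragments (0.220 and 0.0532 TPM) at 3 dpi and 37 and 18 (2.68 and 1.30 TPM) at 7 dpi. The 7 dpi ratio per depth was 62.4, with a counting interval from 10.7 to 2509 since the controls held 1 fragment, and the fitted log2(TPM + 1) difference of 1.46 ± 0.24 (SE) understates a change of so low a gene.

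Gzma, Gzmf and Gzmg were at or near 0. Gzma, the other main granzyme of cytotoxic lymphocytes, had 2 fragments in each control library at 7 dpi (0.184 and 0.180 TPM) and 0 in all other libraries. There 3 fragments, the limit used here, stood for 0.228 to 0.310 TPM. A count of 0 had an exact 95% upper limit of 0.280 to 0.382 TPM. Gzmf had 2 and 1 fragments in the mutant libraries at 7 dpi and 0 elsewhere. Gzmg had 1 fragment in each of these and 1 in mutant library 1 at 3 dpi. All 3 genes were under the 3-fragment limit in every library, so no ratio is given, and none passed the filter on low values.

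At 7 dpi, 5 members passed that filter and Gzma, Gzmf and Gzmg did not. Gzmb met it only through the mutant libraries, so its direction and its lack of overlap were set by the filter. Both mutant libraries were above both control libraries for all 5, which was true of 42.8% of all tested genes in TPM at 7 dpi. These TPM were not scaled further, and without such scaling the median log2 difference of all genes was 0.11 on that day. At an adjusted p under 0.1 (Benjamini-Hochberg over all genes) and a fold change over 1.2, 0.0181% of 16578 genes were called higher and 0.0483% lower. The 3 higher genes were Slpi, Gzmc and Emb, the gene of the adhesion protein embigin. When the p was left unadjusted, with a limit of 0.05 and no change to the fold, all 5 members were higher, against 5.30% of all tested genes higher and 5.83% lower. Because this contrast chose the members, these counts only describe them. They also depend on the filter and scaling, since 0 genes were called at an adjusted p under 0.1 without a filter, with a filter on mean TPM or without further scaling, while the fitted difference of Slpi stayed between 2.99 and 3.11 and that of Gzmc between 1.97 and 2.08. In the order of fitted differences, Slpi, Gzme, Gzmd, Gzmc and Gzmb were at places 2, 3, 4, 8 and 20 of the 16578.

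Among the levels of the mutants at 7 dpi, Slpi (37.8 to 53.0 TPM) stood above Gzme (19.8 to 24.8), and Gzme above Gzmc (9.65 to 12.0), with no overlap of libraries. Gzmc and Gzmd (7.77 to 10.4) overlapped and are not separated by these libraries, and Gzmb (1.30 to 2.68) stood below both. In the controls of the same day Slpi (3.61 to 5.11 TPM) overlapped Gzme (1.58 to 4.66), which overlapped Gzmc and Gzmd in turn. TPM is scaled to exon length, so that these levels may be set beside each other.

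The 3 dpi contrast took no part in choosing the members. Of the 8, only Slpi, Gzmd and Gzme passed the filter there, and 0 were called by limma where a fold change over 1.2 and an unadjusted p under 0.05 were required. Over all 15699 genes 2.40% were called higher and 3.87% lower at this threshold, and 0 at an adjusted p under 0.1. The fitted log2 difference of Slpi was 0.06 ± 0.46 (SE, unadjusted p = 0.899 in limma, adjusted p = 0.988). That of Gzme was 1.47 ± 1.02 (SE, unadjusted p = 0.210 in limma, adjusted p = 0.860). That of Gzmd was 1.14 ± 0.98 (SE, unadjusted p = 0.296 in limma, adjusted p = 0.881). For none were both mutant libraries above both controls, a pattern that held for 18.2% of tested genes at 3 dpi. Leaving out libraries moved these values. Without mutant library 1 Gzme differed by -0.11 (limma, unadjusted p = 0.762), and without mutant library 2 it differed by 3.04 (limma, unadjusted p = 0.000916), a value that rests on the lone library 1. Gzmd differed by 0.56 without control library 1 (limma, unadjusted p = 0.670) and by 2.55 without mutant library 2 (limma, unadjusted p = 0.00815).

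**Figure D2:**
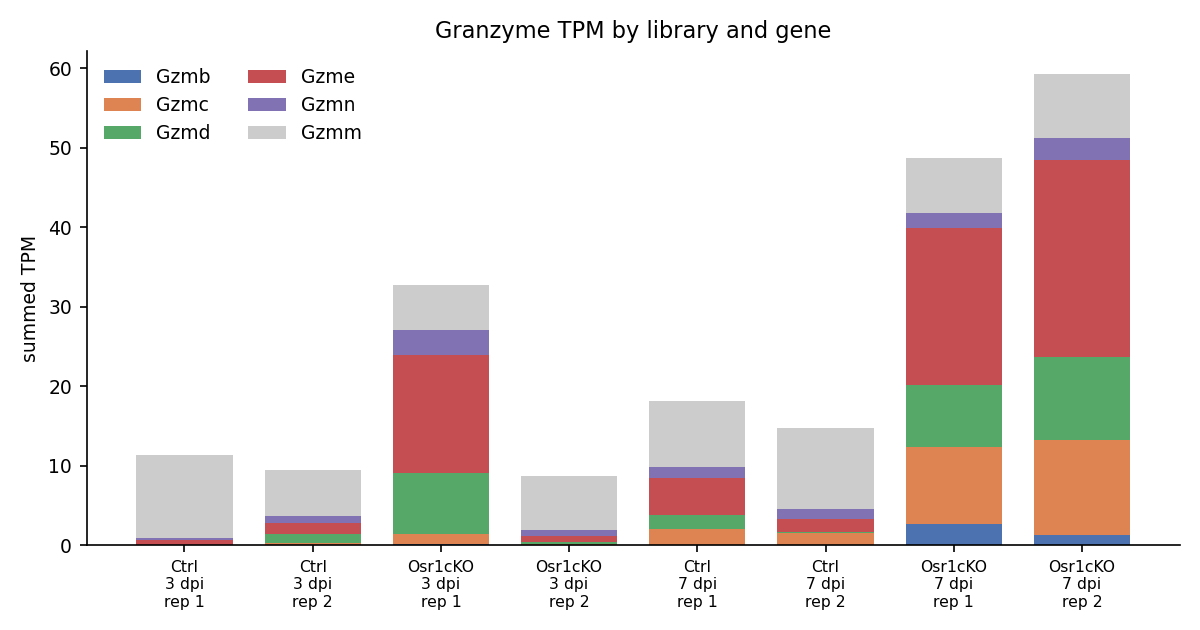
Summed TPM of 6 granzymes in each library, with bar segments for single genes. Mutant library 1 at 3 dpi and both mutant libraries at 7 dpi stand above the controls through Gzme, Gzmd and Gzmc, whereas Gzmm keeps a similar height in all 8.

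Summed over the 7 granzymes of the set, the libraries held 0.670 and 2.86 TPM (controls, 3 dpi), 24.0 and 1.21 TPM (mutants, 3 dpi), 8.65 and 3.44 TPM (controls, 7 dpi) and 40.2 and 48.7 TPM (mutants, 7 dpi). Mutant library 1 at 3 dpi stood far above its replicate and above all 4 control libraries. At 7 dpi the means were 6.05 ± 3.69 and 44.4 ± 5.99 TPM (SD, n = 2 each). Gzme gave 46.0% to 53.9% of the sum in the 4 libraries at 7 dpi and 61.8% in mutant library 1 at 3 dpi. Gzmc gave 24.0% and 24.6% in the mutants at 7 dpi but 5.15% in mutant library 1 at 3 dpi, where Gzmd gave 31.8%. The high library at 3 dpi thus held mainly Gzme and Gzmd, while Gzmc and Gzmb had 14 and 4 fragments in it.

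The other 3 mouse granzymes did not share the size of these differences. Gzmm, a granzyme of natural killer cells on chromosome 10, read 10.5 and 5.77 TPM in controls and 5.69 and 6.80 TPM in mutants at 3 dpi. At 7 dpi it read 8.32 and 10.2 TPM in controls and 6.99 and 8.06 TPM in mutants, a fitted log2 difference of -0.38 ± 0.15 (SE, limma adjusted p = 0.385). Gzmn, inside the cluster, read 0.243 and 0.794 TPM in controls and 3.11 and 0.771 TPM in mutants at 3 dpi, so its one high library was the same as for Gzme and Gzmd. At 7 dpi it read 1.41 and 1.28 TPM in controls against 1.89 and 2.73 TPM in mutants, with a fitted log2 difference of 0.40 ± 0.17 (SE, adjusted p = 0.410). Gzmk was at or under 0.173 TPM in every library.

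**Figure D3:**
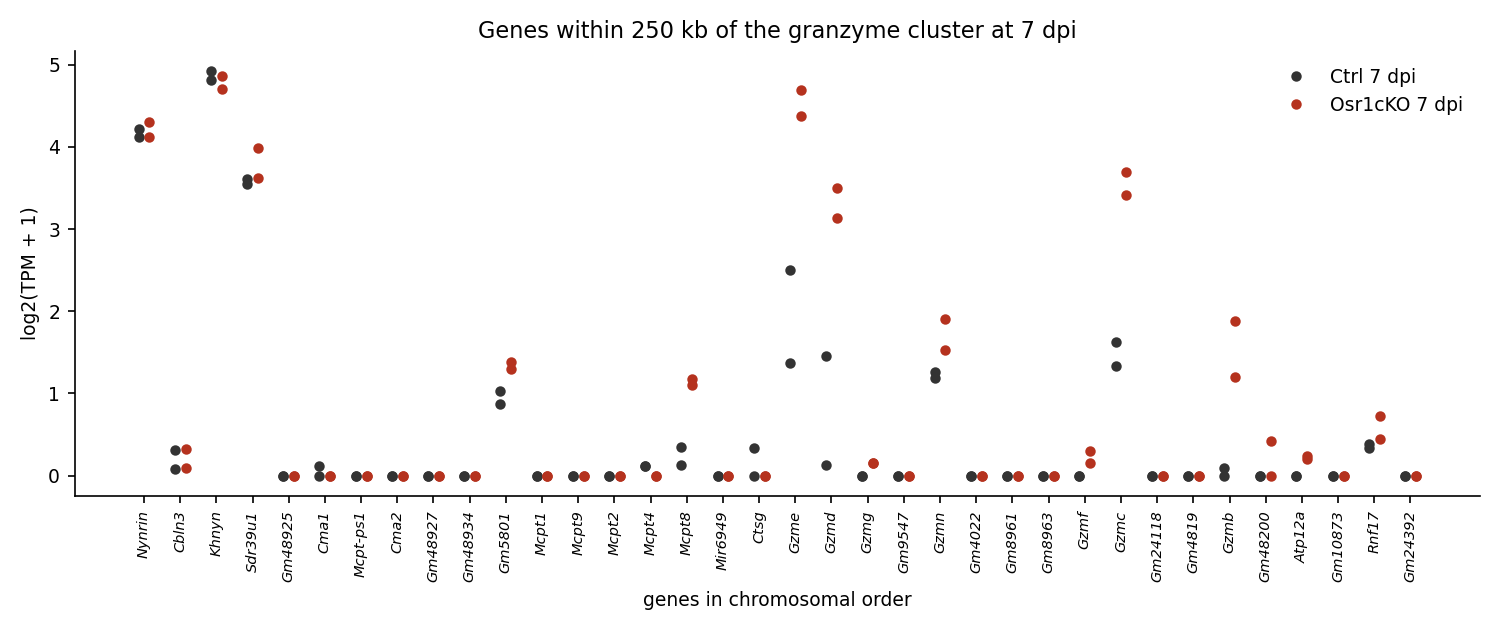
log2(TPM + 1) at 7 dpi for the genes annotated within 250 kb of the granzyme cluster, in chromosomal order. Points are libraries, control in black and Osr1cKO in red. Differences are seen at Gzme, Gzmd, Gzmc, Gzmb and Mcpt8, while Nynrin, Khnyn and Sdr39u1 at the edge show similar values in both genotypes.

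Within 250 kb of the cluster 31 other genes are annotated, 24 of them under 1 TPM in all libraries. Of those tested, 6 at 3 dpi and 8 at 7 dpi, 0 were called at the thresholds used for each day, and Mcpt8, a mast cell protease gene of basophils, was the 1 that was higher at an unadjusted p under 0.05 at 7 dpi (limma). It met the filter only through the mutant libraries, so its p supports nothing. It stood at 0.161 and 0.158 TPM in controls and 1.11 and 0 TPM in mutants at 3 dpi, and at 0.0930 and 0.272 TPM in controls and 1.15 and 1.25 TPM in mutants at 7 dpi. Its high libraries were those of Gzme, with a fitted log2 difference of 0.85 ± 0.14 (SE, adjusted p = 0.222). Of the 8 chymase and mast cell protease genes of the locus, 7 stayed at or under 0.263 TPM. Of the 5 most abundant neighbours, Khnyn, Nynrin and Sdr39u1 had log2 differences of -0.20 ± 0.11, -0.08 ± 0.10 and 0.10 ± 0.17 (SE) at 7 dpi, Gm5801 had 0.32 ± 0.14 and the fifth was Gzmn.

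At the Slpi locus 35 other genes are annotated within 250 kb, among them other WAP genes. Here 6 were tested at 3 dpi and 7 at 7 dpi, and 0 were called on either day, also at an unadjusted p under 0.05. The nearest abundant genes Sdc4, Pigt, Stk4, Sys1 and Matn4 had log2 differences of 0.28 ± 0.12, -0.15 ± 0.09, -0.09 ± 0.12, 0.04 ± 0.16 and -0.06 ± 0.21 (SE) at 7 dpi. Of the other 12 listed WAP genes 4 were tested at 7 dpi and 0 were called, with a median difference of -0.27 beside 0.01 over all genes. The closest relative by size of p was Wfikkn1, at 2.05 and 2.46 TPM in controls and 1.89 and 1.48 TPM in mutants.

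The genes of neutrophil elastase, cathepsin G and chymases, listed as targets of Slpi, were scarce in these libraries. Elane, neutrophil elastase, reached 1.01 TPM at most, Ctsg, cathepsin G, had at most 0.263 TPM, and the chymase genes Cma1 and Mcpt4 at most 0.216 TPM. Of the 7 serine protease genes on that list 3 were tested at 7 dpi and 0 were called. Klk1 and Plau were lower at an unadjusted p under 0.05 (limma). Prtn3, also tested, had a log2 difference of 0.08 ± 0.16 (SE) at 7 dpi. Plau, urokinase, was counted in that list but is not taken here as a target of Slpi. It was the abundant one. It stood at 927 and 998 TPM in controls and 719 and 825 TPM in mutants at 7 dpi, a log2 difference of -0.45 ± 0.10 (SE, limma adjusted p = 0.270).

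Other protease inhibitors showed no call at 7 dpi. Of the 20 listed serpin, Kunitz and related inhibitor genes, 16 were tested at 7 dpi and 0 were called, 13 with a negative difference and a median of -0.11. At an unadjusted p under 0.05 (limma) A2m was higher and Cst3 lower. The lowest p belonged to Cst3, cystatin C, at 1187 and 1329 TPM in controls and 780 and 816 TPM in mutants, with a log2 difference of -0.78 ± 0.10 (SE, adjusted p = 0.174). Serpinb9, the mouse inhibitor of granzyme B, stood between 17.2 and 24.1 TPM in all 4 libraries of that day. At 3 dpi 18 were tested and Spint1, a Kunitz inhibitor, fell, from 0.870 and 0.511 TPM in controls to 0.114 and 0.221 TPM in mutants (log2 difference -0.53 ± 0.16, limma unadjusted p = 0.0224). That call was lost without either mutant library. Spint1 met the filter only through the control libraries, so its p supports nothing.

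The granule machinery was tested as a list of 12 genes. Prf1, perforin, was at or under 0.0805 TPM in all libraries and was not tested. The dipeptidyl peptidase Ctsc, which activates granzymes, was present at 34.9 to 41.0 TPM at 7 dpi, with a log2 difference of -0.06 ± 0.11 (SE). Of 11 genes tested at 7 dpi 0 were called, with a median of -0.04. At 3 dpi 1 of 11 rose, namely Rab27a, a GTPase of granule release, from 0.331 and 0.567 TPM in controls to 0.856 and 1.04 TPM in mutants (log2 difference 0.43 ± 0.16, limma unadjusted p = 0.0438). That call was lost with a replicate block (limma, unadjusted p = 0.0645), in limma-voom (0.0532), with a pseudocount of 0.1 (0.0587), without a filter (0.0715), and without control library 1 (0.137), mutant library 1 (0.108) or mutant library 2 (0.178). At 7 dpi Rab27a was lower and Stxbp2 higher at an unadjusted p under 0.05 (limma). Srgn, serglycin, the proteoglycan that holds granzymes in granules, read 5.49 and 7.88 TPM in controls and 8.85 and 16.9 TPM in mutants at 7 dpi, a log2 difference of 0.69 ± 0.30 (SE, adjusted p = 0.421).

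Of 17 listed cytokines, receptors and factors known to induce granzyme genes in lymphocytes, 12 were tested on each day. At 3 dpi 3 fell and 0 rose. Il15 stood at 16.2 and 11.8 TPM in controls and 6.08 and 2.43 TPM in mutants (log2 difference -1.59 ± 0.41, limma unadjusted p = 0.0111). Il18 stood at 37.7 and 34.1 against 21.4 and 19.3 TPM (log2 difference -0.79 ± 0.15, limma unadjusted p = 0.00299). Il15ra, the receptor that presents IL-15, stood at 43.4 and 44.2 against 34.1 and 23.3 TPM (log2 difference -0.62 ± 0.22, limma unadjusted p = 0.0384). None passed an adjusted p under 0.1. In the mutant library with the high Gzme, Il15 was below both controls and above the other mutant library. Il15ra lost its call without a filter (limma, unadjusted p = 0.0606), without either control library (0.0817 and 0.0868) and without mutant library 2 (0.185). At 7 dpi 0 of the 12 were called, with a median of -0.07. At an unadjusted p under 0.05 (limma), 3 were higher, namely Il7 (log2 difference 0.41 ± 0.12), Runx3 (0.41 ± 0.12) and Prdm1 (0.62 ± 0.24, SE), and 1 was lower. The lowest p was that of Il2rb, a receptor chain for IL-2 and IL-15, at 1.32 and 1.65 TPM in controls and 0.703 and 0.704 TPM in mutants (-0.61 ± 0.14, adjusted p = 0.270).

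**Figure D4:**
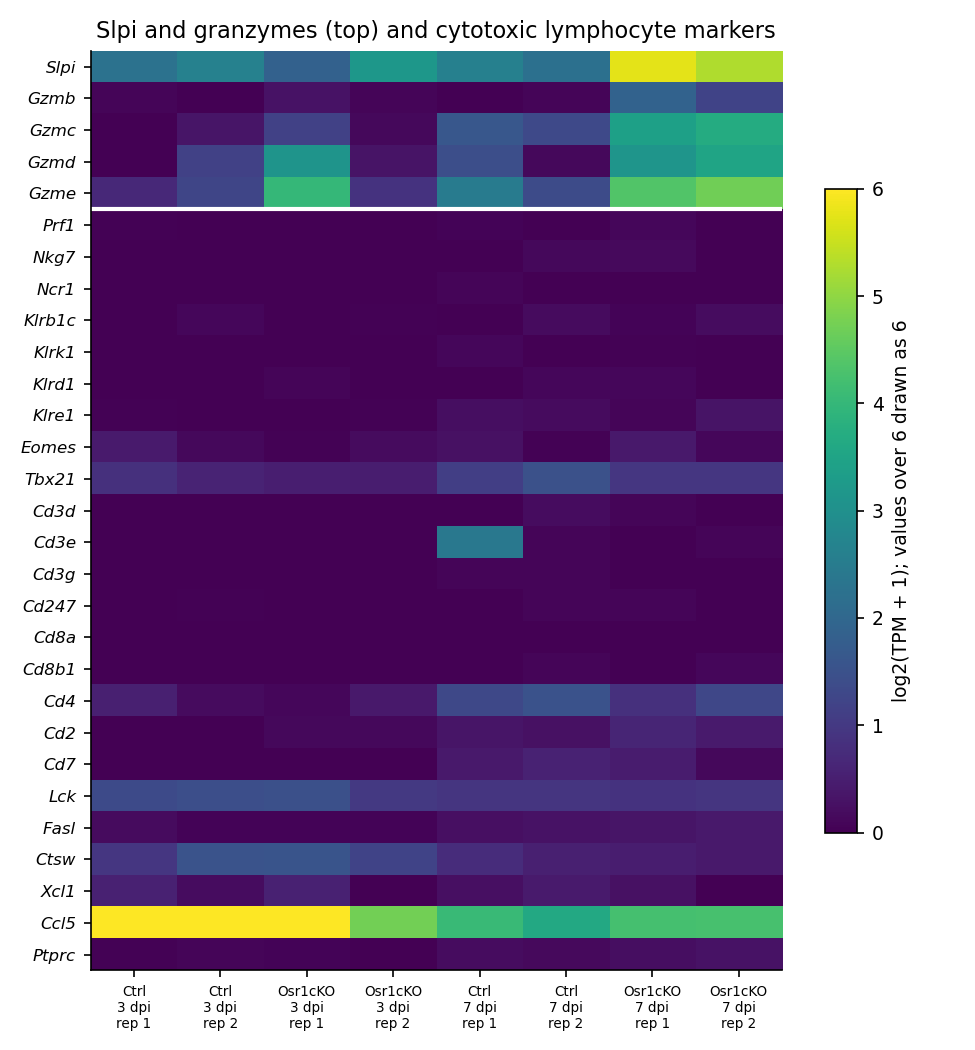
log2(TPM + 1) in the 8 libraries for Slpi and 4 granzymes above the white line and 24 cytotoxic lymphocyte markers below it. Most marker rows stay near 0 in every library, with Ccl5 as the abundant exception, and no marker row brightens in both mutant libraries at 7 dpi as the granzymes do.

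Since granzymes are known from lymphocytes, markers of other cells that a sort could carry were set beside them. In bulk RNA, fewer cells of a type and less RNA per cell cannot be told apart. Of 24 cytotoxic lymphocyte markers, 18 were under 1 TPM in all 8 libraries, and Cd8a was at 0 in all of them. Prf1, Nkg7, Ncr1, Klrk1, Klrd1, Cd3d, Cd3g and Cd247 were each at or under 0.150 TPM, beside 19.8 and 24.8 TPM of Gzme in the mutants at 7 dpi. Summed without Ccl5, the list held 10.2 and 7.17 TPM in controls and 5.31 and 5.12 TPM in mutants at 7 dpi, so both mutants were below both controls there. At 3 dpi it held 4.72 TPM in each control and 4.91 and 3.32 TPM in mutants, and mutant library 1, which had the most Gzme of that day, had the highest sum of that day by a small margin. With Ccl5 the range over the groups was 160 to 323 (controls, 3 dpi), 28.9 to 89.5 (mutants, 3 dpi), 18.4 to 26.0 (controls, 7 dpi) and 23.1 to 23.2 TPM (mutants, 7 dpi). Ccl5, a chemokine of lymphocytes and stressed stromal cells, fell at 3 dpi (log2 difference -2.23 ± 0.64, limma unadjusted p = 0.0176), a call lost without control library 1 (limma, unadjusted p = 0.0797). Cd3e read 4.27 TPM in control library 1 at 7 dpi and at most 0.0666 TPM elsewhere.

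Mast cell markers were nearly absent as well, with Cpa3, Tpsb2 and Tpsab1 at 0 in all libraries and a summed level of 0.605 to 0.718 TPM in controls and 0.584 to 0.713 TPM in mutants at 7 dpi. Its 1 call at 3 dpi was Hdc, histidine decarboxylase, which fell (3.61 and 2.14 against 0.792 and 0.275 TPM, log2 difference -1.33 ± 0.28, limma unadjusted p = 0.00512). Neutrophils are a known source of Slpi, and their markers summed to 6.21 and 19.6 TPM in controls and 14.5 and 27.0 TPM in mutants at 7 dpi. These ranges overlapped, the higher sum in mutants was that of library 2, which had the lower Slpi, and 0 of the 8 tested neutrophil genes were called. By sign, 5 of these 8 had a positive and 3 a negative difference, with a median of 0.08. Camp, with the lowest p of them, read 0 and 1.55 TPM in controls and 2.61 and 1.92 TPM in mutants. Retnlg, not tested, read 0 and 0.153 TPM in controls and 0.351 and 1.40 TPM in mutants. S100a9 reached at most 12.0 TPM, and Ngp stood at 0 in 1 library of each genotype. Macrophage markers summed to 52.0 to 57.3 TPM in controls and 56.7 to 81.1 TPM in mutants, endothelial markers to 47.4 to 62.3 and 49.4 to 72.6 TPM, and muscle cell markers to 48.1 to 88.1 and 48.4 to 48.5 TPM at 7 dpi, with 0 genes called in each of these lists at an adjusted p under 0.1. At an unadjusted p under 0.05 (limma), Csf1r of the 12 macrophage markers and Cdh5 and Emcn of the 7 endothelial markers were higher in the mutants at 7 dpi, and Acta1 and Ckm of the 8 muscle markers were lower, where 5.30% of all tested genes were higher and 5.83% lower. By sign alone, 11 macrophage and 6 endothelial markers had a positive and 8 muscle markers a negative difference, with medians of 0.10, 0.25 and -0.49 beside 0.01 over all genes. The part of such cells in the levels of Slpi and the granzymes was not tested.

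**Figure D5:**
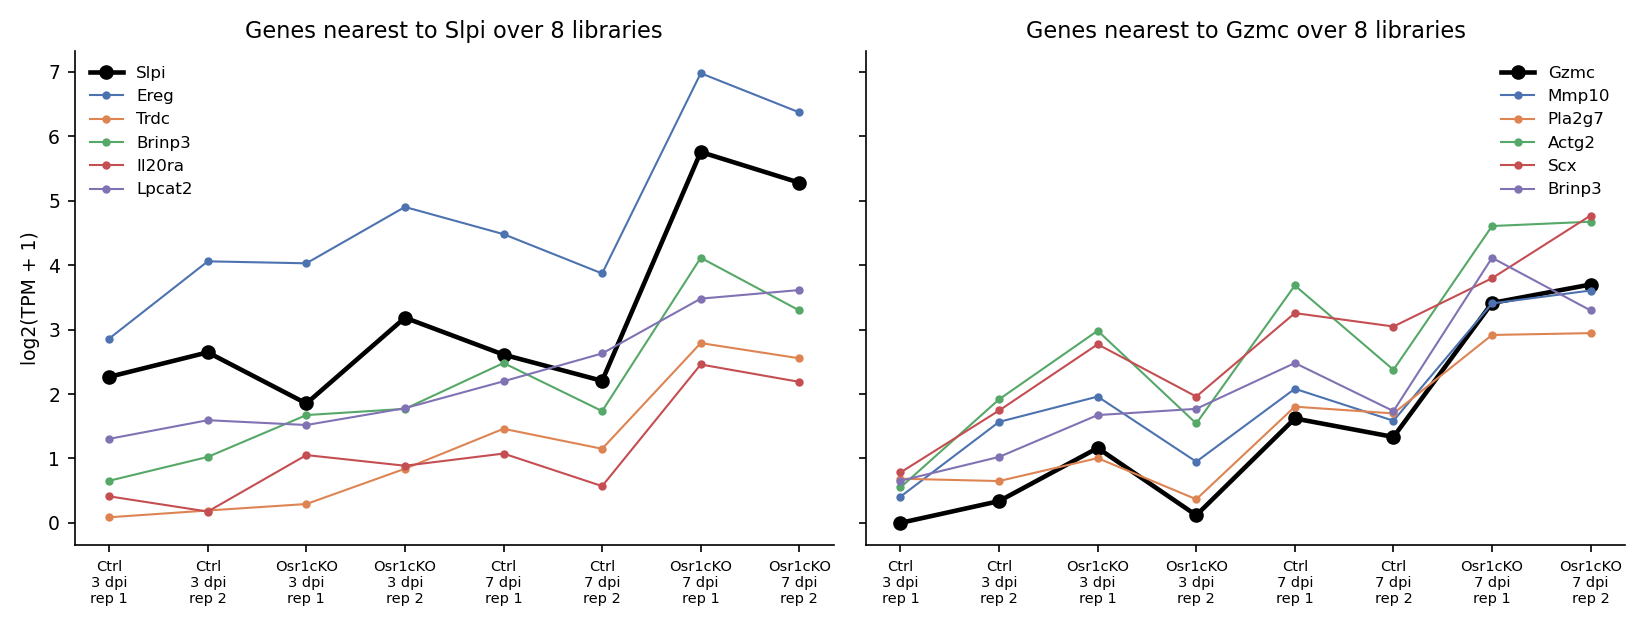
log2(TPM + 1) over the 8 libraries for Slpi (left) and Gzmc (right), each in black, with the 5 genes nearest to it in colour. Lines join libraries only to guide the eye. Ereg runs closest to Slpi, and Mmp10 and Pla2g7 closest to Gzmc, all highest in the mutants at 7 dpi.

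Genes with values most like those of Slpi and Gzmc were found over the 8 libraries by the root mean square (RMS) difference of log2(TPM + 1), each gene centred on its own mean, among 15042 and 15043 genes. This is a description, as all genes share the same libraries. Nearest to Slpi was Ereg, epiregulin, a ligand of the epidermal growth factor receptor, with an RMS difference of 0.47. Ereg stood at 6.26 and 15.7 TPM in controls and 15.3 and 28.9 TPM in mutants at 3 dpi, then at 21.3 and 13.6 TPM in controls and 125 and 81.8 TPM in mutants at 7 dpi. At 7 dpi both genes were higher in mutant library 1 than 2 and in control library 1 than 2. Next came Trdc (0.66), Brinp3 (0.69), Il20ra (0.77) and Lpcat2 (0.79).

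Trdc, the constant segment of the T cell receptor delta chain, read 1.75 and 1.22 TPM in controls and 5.92 and 4.87 TPM in mutants at 7 dpi. Other receptor and complex genes of T cells, looked up after this was seen, gave other values. Trac stood at 0.222 to 1.11 TPM, Trbc1 and Trbc2 at 0 to 0.902 TPM and Trgc1 at 0 TPM at 7 dpi, and Trdv4 was at 5.02 and 3.88 TPM in controls and 3.51 and 3.52 TPM in mutants.

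Nearest to Gzmc were Mmp10 (stromelysin 2, RMS difference 0.42), Pla2g7 (0.45), Actg2 (smooth muscle gamma actin, 0.47), Scx (scleraxis, a tendon transcription factor, 0.49) and Brinp3 (0.53). Mmp10 read 0.326 and 1.96 TPM in controls and 2.89 and 0.931 TPM in mutants at 3 dpi, and 3.23 and 2 TPM in controls and 9.60 and 11.2 TPM in mutants at 7 dpi. Like Gzmc, it was higher in mutant library 1 than 2 at 3 dpi and in library 2 than 1 at 7 dpi. Scx, at 5.83 TPM in mutant library 1 and 2.89 TPM in library 2 at 3 dpi, did the same. Brinp3 was on both lists. Among the members themselves, Gzme was place 79 and Slpi place 145 from Gzmc, while Gzmd was place 1533 and Gzme place 2813 from Slpi. The inhibitor and the granzymes thus shared the high group at 7 dpi but not the high library at 3 dpi, where mutant library 1 had the most Gzme and the least Slpi.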

How the data were processed

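Stranded polyA RNA-seq libraries of sorted FAPs were analysed (2 per group, 4 groups). The authors aligned reads to mm10 with STAR, normalized with DESeq2 and deposited TPM per gene symbol. The counting program and annotation are not given in the sources used here. The labels give 75-base reads, the methods also 100-base reads. Of 55385 entries, 109 repeats of 106 symbols were left out. With GENCODE M21 exon lengths (53275 symbols matched), 98.7% to 98.9% of the low values (under 50 fragments) were whole to within 0.02, so fragments were recovered and gave exact 95% Poisson intervals (counting error only). The p-values rest on the spread between 2 libraries per group, which limma moderates toward a trend over all genes. At 7 dpi each library pooled 4 mice, so the spread between single mice is not seen.

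Each day was fitted with limma 3.58.1 (R 4.3.3) on log2(TPM + 1), scaled by trimmed log ratios (30% from each end), for genes with at least 10 fragments in 2 libraries and 15 over 4. Symbols without a length needed a mean of 1 TPM. Fold changes are on this scale and understate those of low genes. Thresholds, from the study's methods, were p under 0.05 without adjustment (3 dpi) or Benjamini-Hochberg p under 0.1 (7 dpi), both beside a fold change over 1.2. Fits were tested on simulated data. Promoters and starts are RefSeq, transcripts GENCODE. SciPy 1.17.1, pandas 2.3.3 and NumPy 2.4.6 were used. The members, lists and filter were chosen with earlier results of these data known. Named genes were all granzymes and Slpi, at most 3 per list and day by p, at most 5 neighbours per locus by TPM and 5 nearest genes each for Slpi and Gzmc, besides further marker genes, levels of Srgn, Serpinb9 and Ctsc and T cell receptor genes picked after their values were seen. Alternatives were other scalings, filters, pseudocounts, a replicate block, limma-voom, eBayes with the robust option, 1 fit over 8 libraries, the other day's threshold and leaving out each library.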

Additional observations from a re-analysis of the deposited data

Results flagged for a closer look

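For 6 named genes that are no members, both mutant libraries lay on one side of both controls at 3 dpi and on the other side at 7 dpi. The difference between the days was not tested for any of them. The log2 differences at 3 and 7 dpi were -2.23 and 0.28 for Ccl5, -0.60 and 0.19 for Cd68, -0.37 and 0.23 for Pecam1, 0.31 and -0.45 for Plau, 0.43 and -0.34 for Rab27a, and -0.31 and 0.37 for Stxbp2. Of these 12 values, only those of Ccl5 and Rab27a at 3 dpi were called at the threshold of their day, and both calls were lost without control library 1. No group had the 4 samples needed to look for a single library far from the rest.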

How the results depend on the processing

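At 7 dpi, 11 genes were called, 2 of them members. Without further scaling, without a filter, with a mean TPM of at least 1 and in a fit of all 8 libraries, 0 genes and 0 members were called. limma-voom on recovered fragments called 191 genes and 4 members, and the unadjusted threshold 1844 and 5. Leaving out 1 library gave 7 to 468 genes and 1 to 5 members, 468 and 210 for the first and second control library and 10 and 7 for the first and second mutant library, and Gzmc lost its call without either mutant library. At 3 dpi 985 genes and 0 members were called. A fit of all 8 libraries called 1758 genes, the adjusted threshold 0, and leaving out 1 library 371 (without mutant replicate 2) to 2804 genes (without control replicate 2) and 0 to 2 members. Those 2, called without mutant replicate 2, were Gzmd and Gzme. The cause was not tested, except that fewer libraries or another set of genes entered these fits. Signs changed at 3 dpi only when 1 library was left out, with log2 differences from -0.58 to 0.71 for Slpi, -0.11 to 3.04 for Gzme and -0.67 to 0.084 for Gzmm. At 7 dpi the log2 differences of the 5 tested members kept their sign in every alternative that tested them. These alternatives numbered 12 for Gzmb, which met the filter only through the mutant libraries, and 14 for each of the others. The differences ran from 2.72 to 3.25 for Slpi, 1.83 to 2.44 for Gzmc, 1.77 to 4.06 for Gzmd, 1.91 to 3.07 for Gzme and 1.42 to 4.97 for Gzmb. Without further scaling the median of all genes was 0.11 at 7 dpi. Same-numbered libraries deviated together with a correlation of -0.13 at 3 dpi and 0.06 at 7 dpi, so numbers were not taken as pairs. A replicate block gave 980 genes and 0 members at 3 dpi and 27 genes and 1 member at 7 dpi. The crossed pairing, added after seeing the data, gave 1168 genes and 0 members at 3 dpi. Counting all 10 granzymes of the mouse moved the mean sums to 10.5 and 20.8 TPM at 3 dpi and 16.7 and 54.3 TPM at 7 dpi (control and mutant). With 2 libraries per group and few fragments, changes of Gzma, Gzmf and Gzmg were not detectable at this depth.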
